A study of Mus musculus with 8 samples.

Results

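Liver RNA was examined for 10 genes of bile acid synthesis and of the bile acid receptor FXR, namely Cyp7a1, Cyp8b1, Cyp27a1, Cyp7b1, Hsd3b7, Akr1d1, Slc27a5, Baat, Nr1h4 and Nr0b2. They were chosen by name: every probe that was not a control spot and carried one of these 10 gene names was taken, which gave 12 of the 41174 probes on the array. All 10 genes passed the filter on dim signal and stood among 14990 genes kept. The mice were AIM-/- or AIM+/+ on a C57Bl/6 background. AIM, the apoptosis inhibitor of macrophage, is a protein that tissue macrophages secrete, encoded by Cd5l. AIM-/- livers were taken on normal chow (written as 0 weeks of diet) and after 6, 12 and 20 weeks of high-fat diet. AIM+/+ livers were taken in the same diet groups. Each genotype in each diet group is 1 array labelled as 1 biological replicate, 8 arrays in all. The promoter or targeting design of the knockout, the age and sex of the mice, the hour of collection and any pooling of animals are not given in the sources used here. The labels do not say when the chow livers were taken. Diet was compared only with these chow arrays, so diet cannot be told apart from age and time.

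Bile acids are made from cholesterol in hepatocytes, by a classic route that Cyp7a1 opens and an alternative route through Cyp27a1 and Cyp7b1. Bile acids bind FXR, a nuclear receptor encoded by Nr1h4, which induces the corepressor SHP (Nr0b2). SHP in turn lowers transcription of Cyp7a1 and Cyp8b1, acting on the receptor LRH-1 (Nr5a2) at their promoters. A hormone from the ileum, FGF15, lowers Cyp7a1 through the hepatocyte receptor Fgfr4 and its partner Klb. In mouse liver several of these transcripts follow the time of day, and Cyp7b1 is known to be higher in males.

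Promoter windows from 250 bases before to 50 bases after the transcription start were found in RefSeq (GRCm38.p6) for 6 of the 10 genes: Cyp8b1, Cyp27a1, Hsd3b7, Akr1d1, Nr0b2 and Nr1h4. Those of Nr0b2 and Cyp8b1 are shown because both hold the letters CAAGGNCA, the motif to which LRH-1 is known to bind, and because these genes lie at opposite ends of the SHP feedback. Capitals mark CAAGGNCA and the TATA box TATAAA, each sequence is written 5′ to 3′ on the strand of its gene, and both strands were searched.
Nr0b2, chr4:133553126-133553425, plus strand: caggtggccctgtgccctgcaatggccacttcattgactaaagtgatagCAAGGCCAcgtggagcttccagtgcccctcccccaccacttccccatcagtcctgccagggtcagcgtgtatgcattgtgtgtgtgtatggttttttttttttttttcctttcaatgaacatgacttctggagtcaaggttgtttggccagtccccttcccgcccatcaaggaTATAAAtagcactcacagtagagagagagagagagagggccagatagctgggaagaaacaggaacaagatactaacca
Cyp8b1, chr9:121916256-121916555, minus strand: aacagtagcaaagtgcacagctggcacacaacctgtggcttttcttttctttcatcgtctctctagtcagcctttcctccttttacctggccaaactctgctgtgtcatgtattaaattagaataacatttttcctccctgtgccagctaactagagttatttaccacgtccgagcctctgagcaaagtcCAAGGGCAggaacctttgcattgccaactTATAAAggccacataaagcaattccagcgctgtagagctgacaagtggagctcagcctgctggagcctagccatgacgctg
In the Nr0b2 window the LRH-1 motif began 201 bases before the start and the TATA box 28 bases before it. In the Cyp8b1 window the motif began 60 bases and the TATA box 31 bases before the start. Of 32851 promoter windows of this length, 6.71% held CAAGGNCA and 13.6% held TATAAA. The nuclear receptor core AGGTCA, which 16.3% of windows held, was found at 2 places in the Akr1d1 window and at 1 in that of Nr1h4. FXR is known to bind an inverted repeat of such a core spaced by 1 base. A looser form of it, the letters GGNCA followed by any 1 base and then TGNCC, was found in 0.676% of all windows and in none of the 6. None of these letters occurred in the Cyp27a1 and Hsd3b7 windows. A match is a description of the letters and not a bound site.

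Of 41174 probes, 18586 to 21119 per array were well above background and none was saturated. Values below are log2 signals relative to the 75th percentile of the array, so that a difference of 1 is 2-fold and levels of different probes are not set against each other. Cd5l averaged 7.35 (SE 0.12) lower on the log2 scale on the 4 AIM-/- arrays than on the 4 AIM+/+ arrays (limma adjusted p = 0.000312). Xist, the X-inactivation transcript of female cells, had signals of 4312 (AIM-/-) and 4434 (AIM+/+) at 20 weeks and at most 14.2 on the other 6 arrays with the probe that was brightest at 20 weeks. Of its other 3 probes, the one that stands for Xist by its mean over all arrays had 892 (AIM-/-) and 903 (AIM+/+) at 20 weeks, and was also above background in AIM-/- liver at 6 weeks (165) and in AIM+/+ liver at 12 weeks (66.1). Those 6 arrays carried signal of Kdm5d, Ddx3y and Eif2s3y from the Y chromosome, and the 20-week arrays did not. Another Y-linked gene looked at, Uty, was well above background on no array with any of its 3 probes. Weeks and sex-linked signal are thus mixed, also in every difference of 20 minus 6 weeks. The diet coefficients printed for the 10 genes are given with and without the 20-week pair. All 4 AIM-/- arrays were on 1 slide and all 4 AIM+/+ arrays on the other, so genotype and slide cannot be told apart. On both slides the arrays of 0, 6, 12 and 20 weeks were at positions 1, 2, 3 and 4, so week and position cannot be told apart either. Of 8 hepatocyte markers 7 were measured, each well above background on all 8 arrays, and their summed signal, in multiples of the array's 75th percentile, was 2403 to 2849 on AIM-/- and 2499 to 3336 on AIM+/+ arrays. Of 4 ileum markers, Fabp6 was above background on no array, Vil1 on 2 and Fabp2 and Slc10a2 on all 8, and of 4 pancreas markers, Cpa1 and Pnlip were on none, Cela1 on 3 and Ctrb1 on all 8.

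**Figure D1:**
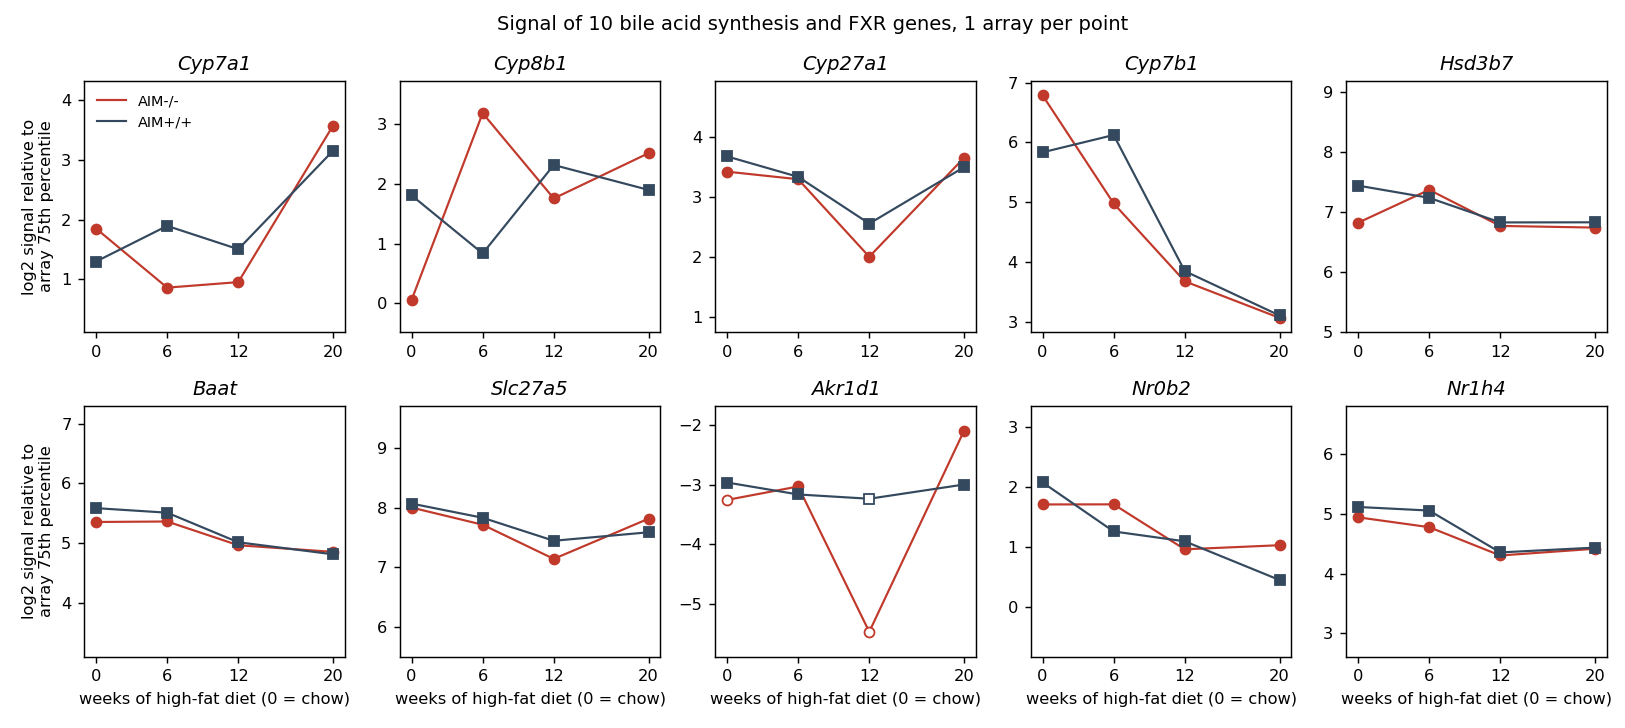
Log2 signal relative to the array's 75th percentile (vertical axis, the same span in every panel) against weeks of high-fat diet, 0 being chow, for the 10 genes. Each point is 1 array, red circles are AIM-/- and dark squares AIM+/+, and open symbols are not well above background. Cyp7b1 had 6.79 in AIM-/- and 5.83 in AIM+/+ liver on chow, and 3.06 and 3.1 at 20 weeks, while both lines of Cyp7a1 had their highest point at 20 weeks.

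Cyp7a1, cholesterol 7-alpha-hydroxylase, is the rate-limiting enzyme of the classic route. Its brighter probe (A_52_P84027, chr4:6193456-6193515, mm8) gave log2 levels of 1.85, 0.86, 0.96 and 3.57 on the AIM-/- arrays at 0, 6, 12 and 20 weeks. On the AIM+/+ arrays the same probe gave 1.30, 1.90, 1.51 and 3.15. Both 20-week arrays therefore stood above the other 6 arrays, and below 20 weeks the genotypes crossed. The 20-week level was 1.98 (SE 0.43, 95% interval 0.87 to 3.1) above that at 6 weeks on the log2 scale, a 3.96-fold difference that did not pass over all genes (limma adjusted p = 0.166). It was 2.71 in AIM-/- and 1.26 in AIM+/+ liver taken alone. Having both 20-week arrays on top was shared by 7.33% of all genes.

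The other Cyp7a1 probe (A_51_P290981, chr4:6195632-6196238) also had its highest levels at 20 weeks in both genotypes. It gave -0.79, -2.01, -2.87 and 0.34 on AIM-/- arrays against -1.32, -1.75, -1.89 and -0.03 on AIM+/+ arrays. The earlier weeks differed between the probes. In AIM+/+ liver this probe was below chow at 6 and 12 weeks (-0.44 and -0.57), while the brighter one was above it (0.60 and 0.21). Its Pearson correlation with the brighter probe was 0.91 over the 8 arrays. The probes stood on opposite sides for the mean of the diet weeks against chow. The brighter probe averaged 1.99 ± 1.14 on diet (SD, n = 6) and 1.58 on chow (n = 2), while the other averaged -1.37 ± 1.25 on diet and -1.05 on chow. The diet coefficient of Cyp7a1 was 0.42 (SE 0.35, adjusted p = 0.494), and it was -0.27 without the 20-week pair. As the 20-week arrays were also those with no Y-chromosome signal, a difference by diet duration and one by sex-linked signal cannot be told apart in this gene.

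Cyp8b1, the sterol 12-alpha-hydroxylase that directs intermediates to cholic acid, differed most between the genotypes within a week (chr9:121764175-121764234, mm8). The AIM-/- levels were 0.06, 3.18, 1.76 and 2.51 at 0, 6, 12 and 20 weeks. The AIM+/+ levels were 1.81, 0.84, 2.32 and 1.90. The AIM-/- array was the lower of the pair on chow, by 1.75 on the log2 scale (3.37-fold), and the higher at 6 weeks, by 2.35 (5.09-fold). At 12 and 20 weeks the differences were -0.56 and 0.61. The diet weeks lay 2.43 above chow in AIM-/- liver and 0.12 below it in AIM+/+ liver, and the interaction of genotype with diet was 2.55 (SE 1.01, 95% interval 0.07 to 5.04, unadjusted p = 0.0458, limma adjusted p = 1.0). It was 2.64 (SE 1.30, adjusted p = 1.0) without the 20-week pair, and the diet coefficient over both genotypes was 1.15 with that pair and 1.09 without it. Each chow value is 1 array, so this rests on the chow arrays alone for its baseline.

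Clock genes had unlike levels in the genotypes on the same chow and 6-week arrays. Dbp, an output factor of the clock, had 8.07 on the AIM-/- and 5.28 on the AIM+/+ chow array, against 6.92 and 7.58 at 6 weeks. Arntl (BMAL1), a core activator, had -3.46 on the AIM-/- and 0.17 on the AIM+/+ chow array, and -1.28 and -3.34 at 6 weeks, of which -3.46 and -3.34 were not well above background. Ciart, a clock repressor, had 0.53 and -3.69 on chow and -2.55 and -0.26 at 6 weeks, in the same order of genotypes, and was above background on all of these but the AIM+/+ chow array. Of 17 clock genes 14 were measured and 0 passed in any of the 5 contrasts by limma, with 9 of them below an unadjusted p of 0.05 for the interaction, beside 4.45% of all genes. Their summed signal was 323 on the AIM-/- and 72.7 on the AIM+/+ chow array, and 160 to 234 on the AIM-/- and 209 to 243 on the AIM+/+ diet arrays. The part of the clock genes in the Cyp8b1 values was not tested.

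**Figure D2:**
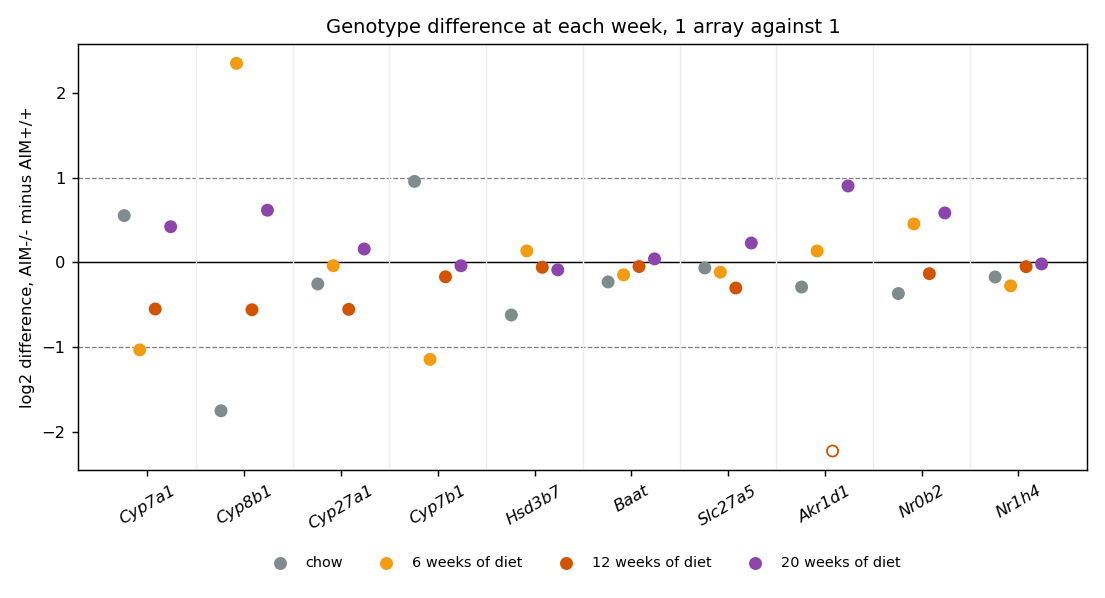
Difference in log2 signal, AIM-/- minus AIM+/+ (vertical axis), for the 10 genes at chow and at 6, 12 and 20 weeks of diet. Each point is 1 array minus 1 array, dashed lines mark 2-fold, and the open circle is Akr1d1 at 12 weeks, where neither array was well above background. Cyp8b1 spans -1.75 to 2.35, while the points of Baat and Nr1h4 lie within 0.28 of 0.

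Cyp7b1, the oxysterol 7-alpha-hydroxylase of the alternative route, had the widest range of the 10 genes over the 8 arrays, 3.72 on the log2 scale (13.2-fold, the 96th percentile of the ranges of all genes). Its probe (chr3:18264437-18264496, mm8) gave 6.79, 4.98, 3.68 and 3.06 on the AIM-/- arrays at 0, 6, 12 and 20 weeks. The AIM+/+ arrays had 5.83, 6.12, 3.85 and 3.1. All 4 arrays of 12 and 20 weeks lay below all 4 of chow and 6 weeks, and both 20-week arrays lay lowest. The first of these orders held for 8.45% of all genes and the second for 10.3%. At 12 and 20 weeks the genotypes were within 0.17 of each other, while the AIM-/- level was 0.95 above the AIM+/+ level on chow and 1.14 below it at 6 weeks.

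Over the diet weeks Cyp7b1 was 2.18 lower than on chow (SE 0.39, 95% interval -3.19 to -1.17, 4.53-fold), which did not pass over all genes (adjusted p = 0.0605). It passed with another background correction (adjusted p = 0.0345), with probes limited to those above background on all arrays (0.0264), with an intensity-dependent prior variance (0.0267) and without the 6-week pair (0.0387). It did not pass with quantile normalization (limma adjusted p = 0.0622) or without a filter on dim probes (0.115). Without the 20-week pair the difference was -1.65 (adjusted p = 0.202). The difference from chow was -2.88 in AIM-/- liver and -1.48 in AIM+/+ liver. Between 6 and 12 weeks, where no 20-week array enters the difference, it was -1.79 (SE 0.48, adjusted p = 0.18), and between 6 and 20 weeks -2.47 (SE 0.48, adjusted p = 0.145).

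The other genes known to be higher in male mouse liver were also lower on the later diet arrays. Of 16 such genes, Cyp7b1 included, 14 were measured. For diet against chow 4 fell, beside 0.854% of all genes, and 0 rose, beside 1.71%. The coefficients of 14 of 14 were negative, beside 52.5% of all genes (median -1.45, against -0.02 over all genes). Those that fell were Slco1a1, a transporter of organic anions and bile acids, at -5.18 (SE 0.39, adjusted p = 0.0234), Susd4 at -1.95 (SE 0.29, adjusted p = 0.0485), the glutathione transferase Gstp1 at -1.29 (SE 0.15, adjusted p = 0.0387) and the serpin Serpina1e at -1.15 (SE 0.18, adjusted p = 0.0493). Without the 20-week pair 14 of 14 were still negative, with a median of -0.96 against -0.01 over all genes, and 0 called. For 12 minus 6 weeks 14 of 14 were negative, beside 56.3% of all genes, with a median of -1.33 against -0.05. By limma 0 of them and 0 of all genes were called, and 10 had an unadjusted p under 0.05, beside 17.8% of all genes. Their summed signal was 1091 to 1129 on the 20-week arrays and 1401 to 3380 on the other 6. Of 15 measured genes known to be higher in females 2 rose and 3 fell for diet, beside 1.71% and 0.854% of all genes. For diet 12 of 15 were positive (median 1.19, against -0.02 over all genes), and those that fell were Cyp3a44, Cyp3a16 and Cyp3a41a. For 20 minus 6 weeks 15 of 15 were positive (median 3.17, against -0.04 over all genes). Of them 14 had an unadjusted p under 0.05, beside 16% of all genes. There limma called 2 (A1bg and Cux2), beside 0.12% of all genes in either direction. Without the 20-week pair 0 of the female-biased genes were called by limma for diet. Of their coefficients 9 were positive and 6 negative (median 0.32, against -0.01 over all genes). Their sum was 1180 to 1197 at 20 weeks and 328 to 1047 on the other 6 arrays. The part of these genes in the Cyp7b1 values was not tested.

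**Figure D3:**
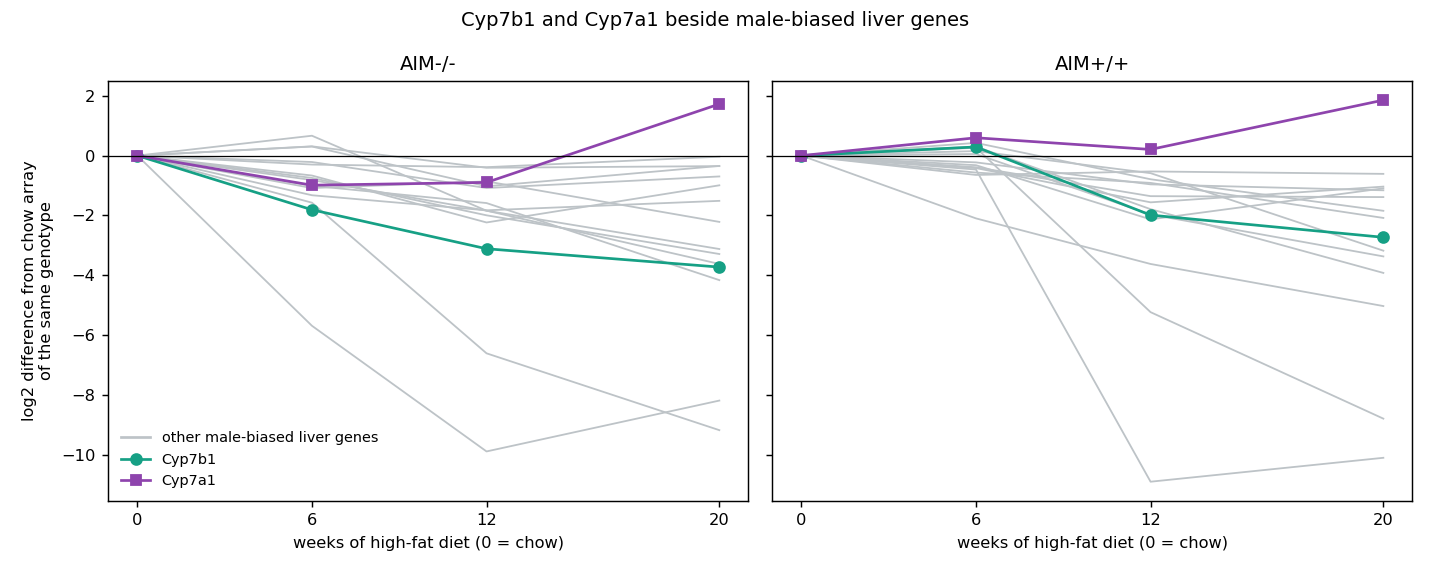
Difference in log2 signal from the chow array of the same genotype (vertical axis) against weeks of high-fat diet, AIM-/- on the left and AIM+/+ on the right, 1 array per point. Green circles are Cyp7b1, purple squares Cyp7a1 and grey lines the other 13 measured male-biased liver genes. Cyp7b1 stood below 0 at 12 and 20 weeks in both genotypes, with the grey lines, while Cyp7a1 stood above 0 at 20 weeks.

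Cyp27a1, the mitochondrial sterol 27-hydroxylase that opens the alternative route, dipped at 12 weeks in both genotypes (chr1:74668836-74668895, mm8). Its levels were 3.42, 3.30, 2.0 and 3.66 on AIM-/- arrays and 3.68, 3.34, 2.55 and 3.50 on AIM+/+ arrays at 0, 6, 12 and 20 weeks. Both 12-week arrays were below the other 6, an order shared by 10.8% of all genes. The 12-week level was 1.04 below that at 6 weeks (SE 0.20, 95% interval -1.56 to -0.52, 2.06-fold), which did not pass over all genes (adjusted p = 0.144). At 20 weeks it was 0.26 above 6 weeks (SE 0.20), so the order of weeks differed from that of Cyp7b1 in the same route.

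Hsd3b7 and Akr1d1 modify the steroid ring in both routes. Hsd3b7, the 3-beta-hydroxy-C27-steroid dehydrogenase (chr7:127594739-127594798, mm8), varied least of the 10 genes. It had 6.82, 7.37, 6.77 and 6.74 on AIM-/- arrays and 7.44, 7.24, 6.83 and 6.83 on AIM+/+ arrays, a range of 0.70 (1.63-fold, against a median range of 0.81 over all genes). Its diet coefficient was -0.17 (95% interval -0.62 to 0.28), and -0.081 without the 20-week pair.

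Akr1d1, the delta4-3-oxosteroid 5-beta-reductase (chr6:37497021-37497080, mm8), was dim, with signal well above background on 5 of 8 arrays. The AIM-/- levels were -3.26, -3.03, -5.46 and -2.1, of which those at 0 and 12 weeks were not well above background. The AIM+/+ levels were -2.97, -3.17, -3.24 and -3.00, of which that at 12 weeks was not. Since neither 12-week array was above background, no fold between the genotypes is given there, and the 12-week level was at least 1.07-fold lower than at 6 weeks (limma adjusted p = 0.442). Its wide range of 3.36 thus rests on 1 array below background.

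Slc27a5 and Baat activate bile acids with coenzyme A and join them to taurine or glycine. Slc27a5, the bile acyl-CoA synthetase (chr7:11888754-11888813, mm8), had 8.0, 7.71, 7.14 and 7.81 on AIM-/- arrays and 8.07, 7.83, 7.44 and 7.59 on AIM+/+ arrays at 0, 6, 12 and 20 weeks. All 6 diet arrays were below both chow arrays, as for 10.6% of all genes, and both 12-week arrays were lowest, as for 10.8%. Its diet coefficient was -0.45 (SE 0.14, adjusted p = 0.137), the same in both genotypes taken alone (-0.44 in AIM-/- and -0.45 in AIM+/+), and it was -0.50 without the 20-week pair (adjusted p = 0.191).

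Baat, the bile acid acyltransferase, was read by 2 probes. The brighter (A_51_P245123, placed by the files on 12 bases at chr4:49510573-49510584) gave 5.36, 5.36, 4.97 and 4.86 on AIM-/- arrays and 5.59, 5.51, 5.02 and 4.82 on AIM+/+ arrays. The other (A_52_P43150, chr4:49511161-49511220) gave 2.50, 2.63, 1.80 and 2.13 on AIM-/- arrays and 2.93, 2.67, 2.20 and 2.09 on AIM+/+ arrays. In both probes all arrays of 12 and 20 weeks were below all of chow and 6 weeks, an order that 8.45% of all genes had. Between 6 and 20 weeks the brighter probe differed by -0.60 (SE 0.14, 1.52-fold, adjusted p = 0.168), and the probes had a correlation of 0.91 over the 8 arrays.

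Nr1h4, which encodes FXR (chr10:88884353-88884412, mm8), was lower on the arrays of 12 and 20 weeks than on those of chow and 6 weeks. This order held for 8.45% of all genes. Nr1h4 had 4.94, 4.78, 4.30 and 4.41 on AIM-/- arrays and 5.11, 5.05, 4.35 and 4.43 on AIM+/+ arrays. It was the only one of the 10 genes whose AIM-/- array was the lower at all 4 times, by 0.17, 0.28, 0.05 and 0.02, an order that 7.16% of all genes had, and the genotype coefficient was -0.13 (95% interval -0.38 to 0.11). Against chow the diet weeks were 0.47 lower (SE 0.11, 1.39-fold, limma adjusted p = 0.0877). The limma adjusted p was 0.0474 with an intensity-dependent prior variance, 0.0776 with quantile normalization and 0.194 without a filter on dim probes. Without the 20-week pair the coefficient was -0.41 (adjusted p = 0.231). From 6 to 12 weeks the difference was -0.59 (SE 0.14, adjusted p = 0.16).

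Nr0b2, which encodes SHP (chr4:132825855-132825914, mm8), had 1.71, 1.71, 0.96 and 1.03 on AIM-/- arrays and 2.08, 1.26, 1.09 and 0.45 on AIM+/+ arrays at 0, 6, 12 and 20 weeks. The lowest level was that of AIM+/+ liver at 20 weeks, where the AIM-/- array was 0.58 higher, and at 12 weeks the genotypes were 0.13 apart. The diet weeks were 0.81 below chow (SE 0.23, 95% interval -1.39 to -0.23, 1.75-fold, adjusted p = 0.115), and the coefficient without the 20-week pair was -0.64 (adjusted p = 0.247). Nr0b2 and Cyp8b1, whose promoters above share the LRH-1 motif, had a correlation of -0.13 over the 8 arrays. Nr0b2 and Cyp7a1 had one of -0.56, and Nr0b2 and Nr1h4 one of 0.77. These correlations describe 8 arrays that share weeks and slides.

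In the comparison of genotypes over the weeks, which asks what differs steadily without AIM, 0 of the 10 genes passed and 0 had an unadjusted p under 0.05 (limma, adjusted p = 1.0 for each), while 5 of 14989 genes passed (0.0334%) and 5.58% had an unadjusted p under 0.05. Their coefficients ran from -0.37 for Akr1d1 to 0.16 for Cyp8b1, and 8 of 10 were negative, beside 49.5% of all genes. Cyp7a1 averaged 1.81 ± 1.26 in AIM-/- and 1.96 ± 0.83 in AIM+/+ liver, and Cyp7b1 4.63 ± 1.65 and 4.73 ± 1.48 in the same order (SD over weeks, n = 4 each). The 95% intervals of the genotype coefficient were widest for Cyp8b1 (-1.58 to 1.90) and narrowest for Baat (-0.34 to 0.15). For none of the 10 genes did the 4 AIM-/- arrays lie entirely above or below the 4 AIM+/+ arrays, orders found for 0.647% and 1.63% of all genes.

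Within single weeks there is 1 array against 1 and no test. On chow 1 of the 10 genes differed at least 2-fold (Cyp8b1), beside 7.81% of all genes, and at 6 weeks 3 did (Cyp7a1, Cyp8b1 and Cyp7b1), beside 6.99%. At 12 weeks 0 of the 9 genes above background on either array did, beside 4.79% of all genes, Akr1d1 being below it on both. At 20 weeks 0 of the 10 did, beside 4.14%. At 6 weeks Cyp7a1 and Cyp7b1 were lower in AIM-/- liver, by 1.03 (2.05-fold) and 1.14 (2.21-fold), while Cyp8b1 was higher. The second Cyp7a1 probe was lower there by 0.25.

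In the comparison of the diet weeks with chow, 0 of the 10 genes passed by limma and 6 had an unadjusted p under 0.05, beside 385 of 14989 genes that passed (2.57%) and 25.3% with an unadjusted p under 0.05. Of the 10 coefficients 8 were negative, beside 52.5% of all genes, with a median of -0.41 against -0.02 over all genes. The exceptions were Cyp8b1 (1.15, SE 0.78) and Cyp7a1. Without the 20-week pair 9 of 10 were negative, with a median of -0.45 against -0.01 over all genes. The share of all genes that were negative in that fit is not given here, and 0 of all genes were called. For 12 minus 6 weeks 0 of the 10 and 0 of all genes passed (0%), 5 of the 10 and 17.8% of all genes had an unadjusted p under 0.05, and 9 of 10 coefficients were negative, beside 56.3% of all genes, with a median of -0.49 against -0.05.

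For 20 minus 6 weeks 0 of the 10 genes passed, beside 18 of all genes (0.12%), and 5 of the 10 and 16% of all genes had an unadjusted p under 0.05. For the interaction of genotype with diet 0 of the 10 and 0 of all 14988 genes passed (0%), with 1 of the 10 and 4.45% of all genes under an unadjusted 0.05. Hepatocyte markers were also lower at 12 weeks than at 6: all 7 measured were negative, beside 56.3% of all genes. Their median was -0.40, against -0.05 over all genes, and 0 were called. Their sum was 2429 and 2499 on the AIM-/- and AIM+/+ arrays of 12 weeks, against 2632 and 3336 at 6 weeks. Fewer hepatocytes and less RNA of these genes per hepatocyte cannot be told apart in whole liver. Among other cell types, 6 of 7 cholangiocyte markers were measured, and their sum was 3.67 to 98.2 on the diet arrays and 3.29 to 3.93 on chow. For diet 1 of these 6 rose, beside 1.71% of all genes, namely Spp1 (osteopontin) at 3.52 (SE 0.47, limma adjusted p = 0.0455). All 8 Kupffer cell markers had a negative genotype coefficient, beside 49.5% of all genes (median -0.39, 0 called by limma, 2 at an unadjusted p under 0.05, beside 5.58%). On chow, however, 6 of the 8 were higher on the AIM-/- array, and their sum was 53.7 in AIM-/- and 49.3 in AIM+/+ liver. On the diet arrays the sums were 46.3 to 54.0 in AIM-/- and 69.6 to 74.6 in AIM+/+ liver. For diet the stellate cell markers (6 of 6 measured) held 1 that rose, beside 1.71% of all genes, Lrat (0.69, SE 0.10, limma adjusted p = 0.0485). All 6 had positive diet coefficients (median 0.56, against -0.02 over all genes), among them Col1a1 at 2.63 and Col3a1 at 1.73, which did not pass. The ileum markers (3 of 4 measured) held 1 that rose, Fabp2, a fatty acid binding protein (1.74, SE 0.12, limma adjusted p = 0.0227). The other ileum markers measured, Slc10a2 at 0.45 and Vil1 at -0.10, did not pass. Of 5 endothelial, 4 T and NK cell and 2 pancreas markers measured 0 passed. The part of these cell types in the values of the 10 genes was not tested.

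**Figure D4:**
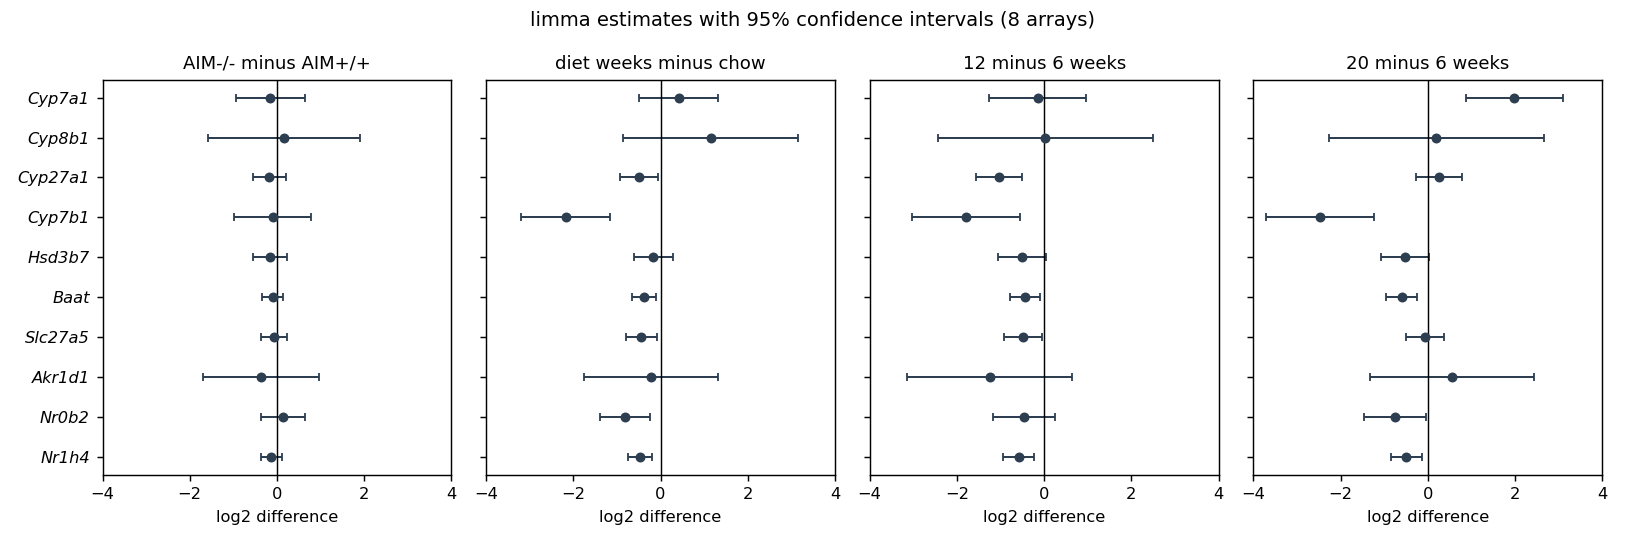
Limma coefficients with 95% confidence intervals (horizontal axis, log2 difference) of the 10 genes in 4 comparisons over the 8 arrays. No coefficient passed at an adjusted p of 0.05 over all genes. In the diet panel Cyp7b1 stands farthest from 0 at -2.18, and in the panel of 20 minus 6 weeks Cyp7a1 (1.98) and Cyp7b1 (-2.47) stand on opposite sides.

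The other genes of bile acid synthesis and conjugation numbered 14, all measured, and 0 passed in any of the 5 contrasts, with 7 at an unadjusted p under 0.05 for diet, beside 25.3% of all genes. Cyp2c70, the mouse enzyme that makes muricholic acids, had 7.94, 5.64, 5.44 and 6.54 on AIM-/- arrays and 7.41, 6.75, 5.58 and 6.55 on AIM+/+ arrays. All 6 diet arrays were thus below both chow arrays, as for 10.6% of all genes. Its diet coefficient was -1.59 (SE 0.32, adjusted p = 0.0703). Acnat2, a peroxisomal acyltransferase related to Baat, had -1.44, 2.92, 2.45 and 2.77 on AIM-/- and 0.70, 1.27, 2.49 and 3.18 on AIM+/+ arrays, with a diet coefficient of 2.88 (SE 0.70, adjusted p = 0.0944). For Acnat2 all 6 diet arrays were above both chow arrays, as for 10.6% of all genes. Ch25h, cholesterol 25-hydroxylase, was above background on 4 diet arrays and on neither chow array, at least 1.44-fold higher on diet (adjusted p = 0.118).

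Of 25 regulators of FXR and Cyp7a1, 21 were measured and 0 passed in any contrast. For diet 9 were positive and 12 negative, beside 52.5% of all genes negative (median -0.02, as over all genes). An unadjusted p under 0.05 was found for 6, beside the same 25.3% of all genes. Fgf15 itself did not pass the filter on dim signal. Fgfr4, its hepatocyte receptor, had 4.2, 3.94, 3.14 and 3.60 on AIM-/- and 3.74, 3.37, 3.15 and 3.28 on AIM+/+ arrays (diet -0.56, SE 0.15, adjusted p = 0.108). Klb, its partner, had 2.1, 1.95, 1.09 and 1.80 against 2.01, 1.72, 1.29 and 1.77 in AIM+/+ liver (12 minus 6 weeks -0.64, SE 0.15, adjusted p = 0.164). Both 12-week arrays of Klb were lowest, as for 10.8% of all genes. Nr5a2, which encodes LRH-1, had 3.20, 2.83, 2.70 and 2.77 on AIM-/- and 3.47, 3.47, 2.84 and 3.1 on AIM+/+ arrays. It was lower in AIM-/- liver at all 4 times, as 7.16% of all genes were (genotype -0.35, SE 0.12, adjusted p = 0.843).

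Of 23 FXR targets and bile acid transporters, 21 were measured. For diet 1 rose, beside 1.71% of all genes, and 1 fell, beside 0.854%, and 9 had an unadjusted p under 0.05, beside 25.3%. Apoc2, the activator of lipoprotein lipase and an FXR target, had 8.0, 8.91, 9.53 and 8.80 on AIM-/- and 7.74, 8.79, 9.28 and 8.93 on AIM+/+ arrays. All 6 diet arrays were above both chow arrays, as for 10.6% of all genes, and it rose by 1.17 (SE 0.13, adjusted p = 0.0366). Slco1a1 had 3.21, 1.64, -3.40 and -5.96 on AIM-/- and 3.09, 3.35, -2.14 and -5.70 on AIM+/+ arrays, and was well above background on 5 of the 8, so that the size of its fall rests partly on background. At 20 weeks, when 0.0467% of all genes fell against 6 weeks, it was at least 70.9-fold lower (adjusted p = 0.0203). It is also one of the male-biased genes above. Without the 20-week pair 0 of the 21 passed for diet.

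Other transporters did not pass. Abcb11, the bile salt export pump and an FXR target, had 7.90, 7.59, 7.21 and 7.59 on AIM-/- and 8.42, 7.86, 7.30 and 7.61 on AIM+/+ arrays. The AIM-/- array was lower at every time, as for 7.16% of all genes (genotype -0.22, SE 0.12, adjusted p = 1.0). Slc10a1, the basolateral bile acid importer NTCP, had 3.53, 4.5, 2.37 and 4.41 on AIM-/- and 4.34, 4.19, 3.29 and 4.65 on AIM+/+ arrays (12 minus 6 weeks -1.52, SE 0.33, adjusted p = 0.151). Both 12-week arrays of Slc10a1 were lowest, as for 10.8% of all genes. Abcc4, a basolateral bile acid exporter, had -1.02, -2.18, -0.83 and -0.06 on AIM-/- and -0.80, -2.77, -0.70 and -0.25 on AIM+/+ arrays. It was lowest at 6 and highest at 20 weeks in both (20 minus 6 weeks 2.31, SE 0.23, limma adjusted p = 0.0606). Diet duration and the sex-linked signal of the 20-week arrays cannot be told apart in that difference. Fgf21, a hepatic hormone listed among FXR targets, had -3.14, 2.78, 2.14 and 1.57 on AIM-/- and -1.15, 0.22, 2.61 and 2.39 on AIM+/+ arrays, with 1 of the 2 chow arrays above background (diet 4.10, SE 0.87, adjusted p = 0.0754).

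Genes whose levels ran most like those of 3 members over the 8 arrays were listed by Pearson correlation among 12856 genes with a symbol. For Cyp7a1 they were Lmod3 (0.963), Pdk2 (0.957) and Vpreb3 (0.949). For Cyp7b1 they were Rps6kb1, Smu1 (0.989 each) and Aox3 (0.988), and for Nr0b2 Psmd5 (0.989), Fbxo8 (0.981) and Saysd1 (0.978). Among the 10 genes themselves the highest correlation was that of Baat and Nr1h4 (0.94), followed by Cyp7b1 with Baat (0.91) and with Nr1h4 (0.91), while Cyp7a1 and Cyp8b1 had -0.03. These correlations are a description of 8 arrays that share weeks and slides, not a test.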

How the data were processed

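Liver RNA was measured on 8 one-colour arrays (Agilent Whole Mouse Genome, design 014868), 1 for each genotype and week. Per the file headers, the processed signal intensity of each spot came from Feature Extraction 9.5.3.1 (protocol GE1-v5_95_Feb07), with background subtracted; the submitters' processing notes name version 9.5. The deposited value table holds log2 values. Set against the scanner files, each of its columns closely followed the log2 processed signal minus the array's 75th percentile (correlation of at least 0.999998, single probes up to 0.534 apart, column medians -3.60 to -3.42), and it served as an alternative.

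From the processed signal, 1639 control spots and the outlier spots (75 to 130 per array) were removed, repeated spots were averaged by probe, and each array's 75th percentile was subtracted on the log2 scale. Probes well above background on at least 2 of 8 arrays were kept (21385, 14990 genes), and the brightest probe stood for a gene. Names came from the RefSeq table of GRCm38 by accession for 24375 of 41174 probes. The other 16799 kept the gene name of the files, or took the RefSeq symbol of which it was a synonym. Where that name was blank, the systematic name was used. The RefSeq table was used for names only, and probe positions are those of the files, on mm8.

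The test was limma (3.58.1, R 4.3.3, read with the package data.table, version 1.17.8) on all 8 arrays, with week as a factor and genotype (3 residual degrees of freedom), and the interaction in a model of genotype by chow or diet (4 residual degrees of freedom), where the lone chow arrays are assumed to vary like the diet arrays. P-values were adjusted by Benjamini-Hochberg over all genes, with a threshold of 0.05. No group has a replicate, so the other weeks or the other genotype supply the error, and a p-value reflects the scatter of these arrays rather than of animals. The number of arrays limits the precision. Where no array of the lower group was well above background, only a bound is given, at least N-fold, taken at the detection limit of the array. The fits were tested on simulated data. The 10 genes and all gene lists were chosen with earlier results of these data known. The rule for named genes took all 10 members and, from each list, genes that passed plus the 4 largest coefficients per contrast, as well as the 3 genes most like Cyp7a1, Cyp8b1, Cyp7b1 and Nr0b2, of which those for Cyp8b1 are not reported here. Alternatives were quantile normalization, normexp background correction, other filters, the mean of a gene's probes, a trended prior variance, the deposited table and leaving out each week.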

Additional observations from a re-analysis of the deposited data

How the results depend on the processing

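Every group has the replicate number 1 alone, so that this number could not serve as a block. The genotypes were compared within weeks, since week is a factor of the fit, and a slide block was not run separately because slide and genotype coincide. Quantile normalization, the mean of a gene's probes and the deposited table moved no count of calls beyond 1.5 times. With normexp background correction the counts of genes called were 707 for diet and 88 for 20 minus 6 weeks, against 385 and 18, and genes at least 2-fold apart numbered 391, 341, 204 and 193 at 0, 6, 12 and 20 weeks. Without a filter on dim probes they were 30 for diet, 8 for 20 minus 6 weeks and 107 for the interaction. With probes above background on all 8 arrays they were 3 for genotype (against 5), 894 for diet, 5 for 12 minus 6 weeks (against 0) and 36 for 20 minus 6 weeks. With a trended prior variance they were 1038 for diet and 84 for 20 minus 6 weeks. Of the 10 genes, diet calls numbered 1 with normexp (Cyp7b1), 1 with probes above background on all 8 arrays (Cyp7b1) and 2 with the trended prior (Cyp7b1 and Nr1h4). The cause of these moves was not tested.

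Leaving out 1 pair of arrays at a time, genotype calls over all genes numbered 1 each time, diet calls 0 to 585 (0 without 20 weeks, 6 without 12 weeks and 585 without 6 weeks) and diet calls among the 10 genes 0 to 1. Genotype coefficients changed sign in Cyp7a1 (-0.39 to 0.14), Cyp8b1 (-0.57 to 0.80), Cyp7b1 (-0.45 to 0.25), Slc27a5 (-0.16 to 0.015), Akr1d1 (-0.79 to 0.25) and Nr0b2 (-0.016 to 0.30). Diet coefficients changed sign in Cyp7a1 (-0.27 to 0.80) and Akr1d1 (-0.61 to 0.29). Slc27a5 also changed sign with normexp for genotype (0.0020) and 20 minus 6 weeks (0.0094), with quantile normalization for 20 minus 6 weeks (0.052), and for the interaction with both (-0.023 by quantile and -0.014 by normexp), and Akr1d1 for the interaction with normexp (0.012). Without the 20-week pair the interaction changed sign in Cyp27a1 (-0.042) and Slc27a5 (-0.14), with 0 of all genes called. None of these coefficients passed, with or without the alternative. Values without the 20-week pair for 12 minus 6 weeks, for the interaction and for the lists were added after the data were seen. Signal over background limits Akr1d1 most, and 1 array per group limits every genotype difference within a week.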
